A study of Mus musculus with 6 samples.

Results

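The circRNA high relative to linear RNA in mouse mural granulosa cells were examined here. They were selected on the pooled counts of all 6 mice, as circRNA with at least 20 circular (back-splice) reads and a circular to linear ratio of at least 0.5. The rule chose 209 of the 3733 circRNA with at least 20 circular reads, which were themselves part of the 42381 circRNA and 316626 junctions in the count table. They came from 203 host genes, and 6 hosts (Ezh2, Rev1, Wdr78, Bbs9, Plk1s1 and Ccdc46) gave a pair each. Their ratio ran from 0.50 to 5.00 with a median of 0.73, against a median of 0.067 in the 3524 others with as many reads. These ratios are what chose the circRNA, and they are given as a description with no test.

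Mural granulosa cells were obtained from 6 immature wild-type CF-1 female mice aged 21 days, each given 5 IU of PMSG (eCG) to grow preovulatory follicles. The 0-h group was sampled 46 h after eCG, with no hCG (3 mice). The 4-h post-hCG group received hCG as a substitute for the LH surge and was sampled 4 h later (3 mice). The cells were released by puncturing follicles, with the oocytes and cumulus complexes taken out, and each library held the bulk RNA of the cells of 1 mouse. Fewer cells of a type and less RNA per cell cannot be told apart in such material.

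A circRNA forms when the donor splice site at the end of an exon is joined back to the acceptor site of the same or an upstream exon, a step called back-splicing. The closed ring has no free ends, which shields it from exonucleases, so circRNA usually outlast the linear RNA isoforms of their host gene. Long flanking introns and inverted repeats in those introns are known to bring the paired sites together. A back-splice read crosses the joint and is therefore seen only in the ring, whereas the linear count behaved in this table as a rounded mean over both ends of a junction.

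The joint is the only sequence that sets a ring apart from its linear RNA isoform, so the joints of 10 circRNA on which the results turn are shown. Each is written 5′ to 3′ as the last 20 bases of the donor exon in lower case and the first 20 bases of the acceptor exon in capitals, read from the GRCm38.p6 genome. Usp3, Aff3, Cdyl, Hipk3, Ankib1 and Nfix were among the circRNA with the most reads. Ezh2 stood out by its ratio, Zfp609 is a host described in other mammalian cells, AC126552.1 lies in a long non-coding gene, and Epha5 changed after hCG.
Usp3: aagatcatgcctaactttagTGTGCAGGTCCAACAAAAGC
Aff3: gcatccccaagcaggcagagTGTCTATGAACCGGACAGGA
Cdyl: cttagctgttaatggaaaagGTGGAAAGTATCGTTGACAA
Hipk3: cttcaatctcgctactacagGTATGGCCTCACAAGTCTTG
Ankib1: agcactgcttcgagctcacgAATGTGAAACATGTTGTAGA
Nfix: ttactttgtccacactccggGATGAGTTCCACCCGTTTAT
Ezh2: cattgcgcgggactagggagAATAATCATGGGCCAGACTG
Zfp609: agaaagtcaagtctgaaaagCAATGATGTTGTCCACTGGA
AC126552.1: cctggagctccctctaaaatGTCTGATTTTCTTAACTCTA
Epha5: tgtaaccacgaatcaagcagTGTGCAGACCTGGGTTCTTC
These rings are made of the exons within chr9:66540062-66566903 (Usp3), chr1:38534906-38536946 (Aff3), chr13:35815909-35816575 (Cdyl), chr2:104470749-104471847 (Hipk3) and chr5:3747021-3772787 (Ankib1). The others lie within chr8:84771784-84772315 (Nfix), chr6:47576536-47577667 (Ezh2), chr9:65794622-65795495 (Zfp609), chr15:62107148-62107465 (AC126552.1) and chr5:84233583-84237554 (Epha5). AC126552.1 and Cdyl are on the plus strand and the rest on the minus strand.

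A whole ring is short enough to print for Asph, which encodes aspartate beta-hydroxylase (chr4:9635901-9639347, minus strand). Its 219 bases held 2 exons of 150 and 69 bases, the latter in capitals.
Asph: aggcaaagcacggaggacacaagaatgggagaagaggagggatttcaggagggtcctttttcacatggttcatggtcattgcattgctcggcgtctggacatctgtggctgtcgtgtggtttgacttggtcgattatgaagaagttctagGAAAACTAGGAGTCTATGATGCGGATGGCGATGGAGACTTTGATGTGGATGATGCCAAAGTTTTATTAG
It was the only 1 of the 209 whose donor exon was followed by GC in the genome, and the other 208 had GT there. All 209 had AG before the acceptor exon, and all began and ended at exon ends annotated in GENCODE M21.

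The Ezh2 ring ended at an outer donor site of exon 3. An inner donor site lies 27 bases upstream, and the stretch between them is printed in capitals after the 20 bases that precede it (chr6:47576536-47576582, minus strand).
Ezh2: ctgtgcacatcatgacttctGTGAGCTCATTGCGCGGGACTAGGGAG
The capitals open with GT, the bases of a donor site.

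Inverted matches across the flanking introns are shown for 3 circRNA in which an exact match between the 1000 bases before the ring and the reverse complement of the 1000 bases after it was long. The copy at the lower coordinate is printed on the strand of the gene.
Lin54: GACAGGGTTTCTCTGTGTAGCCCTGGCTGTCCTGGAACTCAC
Ankib1: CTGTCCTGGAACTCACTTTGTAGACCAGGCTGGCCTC
Rad52: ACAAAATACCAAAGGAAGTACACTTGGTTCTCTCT
The printed copies are at chr5:100475298-100475339 (Lin54), chr5:3746285-3746321 (Ankib1) and chr6:119919977-119920011 (Rad52). They are 42, 37 and 35 bases long, and the lower copy is 349, 699 and 98 bases from the ring. The median longest match was 11 bases in the 209 circRNA and 11 in the others, and 14 of the 209 (6.7%) had a match of at least 20 bases against 5.51% of the others.

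Counting all junctions, the 0-h libraries held 158325 to 194450 circular reads and the 4-h libraries 141778 to 186630. The linear counts on circRNA with a gene name came to 5426038 to 6785909 at 0-h and 5057913 to 7434843 at 4-h. Each library came from another mouse. Granulosa marker genes had a summed linear level of 1673 to 2181 CPM (counts scaled to the library size) in the 0-h mice and 1399 to 1493 in the 4-h mice, over the 9 of 14 genes with a circRNA. Genes that answer to hCG summed to 227 to 247 CPM at 0-h and 1959 to 2451 at 4-h (9 of 16 genes). Sums for other cells were 13.2 to 18.7 for oocyte genes (2 of 8), 15.9 to 30.4 for theca (1 of 4), 1.67 to 4.71 for endothelium (3 of 6), 4.7 to 9.89 for leukocytes (3 of 6) and 10.4 to 28.8 for stroma and muscle (3 of 6). The defining genes Zp3 and Gdf9 of the oocyte, Cyp17a1 of theca, Cdh5 of endothelium and Ptprc of leukocytes had no circRNA with a linear count and are not analysed here.

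**Figure D1:**
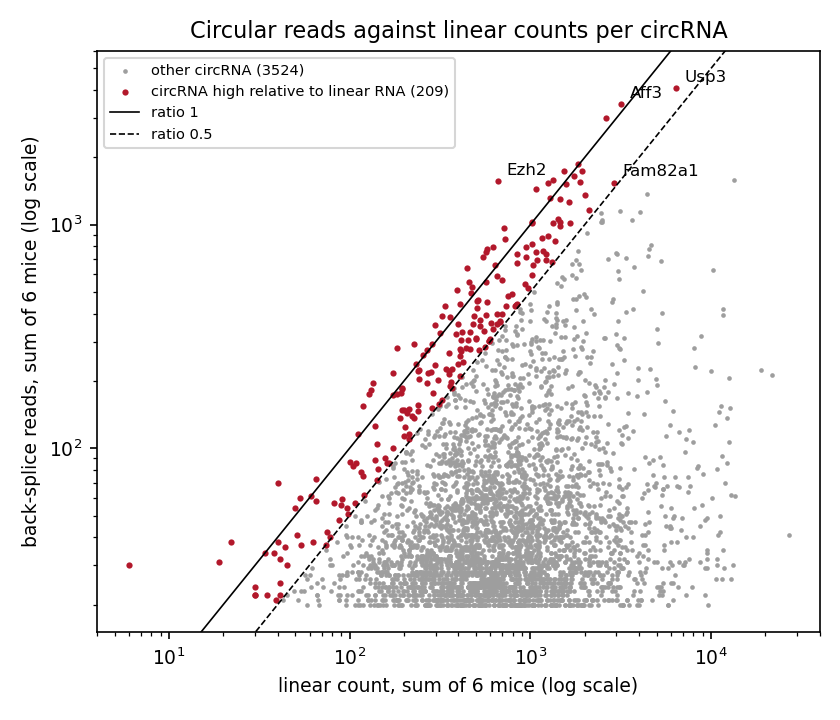
Circular (back-splice) reads, on the vertical axis, against linear counts, on the horizontal axis, both summed over 6 mice and on log scales, for each of the 3733 circRNA with at least 20 circular reads. The 209 circRNA high relative to linear RNA (red) lie on or above the dashed line of ratio 0.5, 50 of them on or above the solid line of ratio 1, and Ezh2 stands at 1564 circular reads and 665 linear counts.

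The 209 circRNA were few but held a large share of the reads on circRNA. Those reads were 65994 to 91854 a library, of 141778 to 194450 circular reads over all junctions. In every mouse the 209 took 19.3% to 20.2% of the reads on circRNA, and 0.29% to 0.36% of the linear counts summed over circRNA with a gene name. The rule asks for a high ratio, so the contrast between these shares follows in part from it. Rows of 1 host that share an end appear to count the same linear reads again, so the linear sums and pooled ratios do not rest on separate reads. The 209 had a median of 279 circular reads (from 21 to 4068) and 371 linear counts, against 37 and 690 in the others. Pooled over the 209, the ratio was 0.80 ± 0.05 at 0-h and 0.80 ± 0.02 at 4-h post-hCG (mean ± SD, n = 3 mice each), and over all circRNA it was 0.0137 ± 0.0016 and 0.0123 ± 0.0008. The 12 circRNA with the most reads carried 26.7% of the 94738 circular reads of the 209.

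The circRNA with the most reads came from Usp3, a histone deubiquitinase, from exons 2 to 8. It had 758, 732 and 419 circular reads in the 0-h mice and 993, 579 and 587 in the 4-h mice, next to 1024, 1092 and 697 and 1653, 962 and 992 linear counts. The ratio was therefore below 1 in every mouse, and 0.63 over all. Aff3, a nuclear factor of the elongation machinery, followed with 598, 673 and 532 circular reads at 0-h and 683, 508 and 456 at 4-h, and 530, 544 and 505 and 633, 528 and 450 linear counts. In Aff3 the ring outnumbered the linear count in 5 of the 6 mice and fell short by 20 reads in the remaining 1.

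Single exons gave the circRNA of Cdyl, a chromodomain corepressor, and Hipk3, a kinase that binds homeodomain proteins. Cdyl exon 5 had 507, 538 and 382 circular reads at 0-h and 716, 481 and 391 at 4-h, against 413, 442 and 347 and 612, 425 and 395 linear counts. Hipk3 exon 2 had 394, 288 and 310 and 309, 276 and 299 circular reads against 377, 299 and 305 and 309, 271 and 265 linear counts. The ring and the linear count of Hipk3 were thus nearly level in each mouse, with a ratio of 1.03 and a 95% exact (Clopper-Pearson) counting interval of 0.963 to 1.096. Nfix, a nuclear factor I transcription factor, circularised exon 2 with 355, 330 and 223 and 267, 222 and 187 reads against 284, 278 and 199 and 212, 187 and 179 linear counts. Its ratio of 1.18 held above 1 in all 6 mice.

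The other circRNA with the most reads were those of Ankib1, a ubiquitin ligase (1747 circular reads, ratio 1.13), Gigyf2, a translational repressor (1746, 0.90), Asph (1643, 0.95) and Ezh2 (1564, 2.35). Ube2k, a ubiquitin conjugating enzyme (1560, 0.83), Fam82a1, a microtubule protein now named Rmdn2 (1541, 0.53), and Rgnef, now named Arhgef28 (1533, 1.22), completed the 12. Their rings held 1 to 7 exons, and 7 of the 12 began at exon 2. In 11 of the 12 the ratio was at least 0.5 in every mouse.

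Ezh2, the methyltransferase of Polycomb repressive complex 2, had the highest ratio among circRNA with over 100 reads. Its 2-exon ring had 259, 303 and 218 circular reads at 0-h and 288, 298 and 198 at 4-h, and its linear counts were 125, 115 and 102 and 121, 114 and 88. The ring was more than double the linear count in every mouse, and the interval of the ratio was 2.15 to 2.58. The linear count depended on the donor site: the ring that ended at the inner site printed above shared its acceptor site with this ring, and it had 279 circular reads and 1718 linear counts, a ratio of 0.16. A longer ring of 14 exons from the same acceptor site also passed the rule, with 239 circular reads and 397 linear counts. The 3 other Ezh2 circRNA with at least 20 reads had ratios of 0.039 to 0.16. Of the 209, 4 had a circRNA that shared an end and had its other end within 100 bases, and all 4 of these neighbours had a higher linear count, though Ezh2 was the only host whose neighbour reached 20 circular reads.

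Of the 12 highest ratios, 3 rested on fewer than 50 circular reads. A ring listed under U6,4930525F21Rik, an overlap of genes whose exons are those of Fam227b, had 30 circular reads and 6 linear counts (ratio 5.00, interval 2.05 to 14.7). A830093I24Rik (Fam228b) had 70 and 40 (ratio 1.75), Ccdc176 (Bbof1) 38 and 22 (1.73), and the sialyltransferase gene St6galnac3 31 and 19 (1.63). Better read were Mettl9, a histidine methyltransferase gene (963 circular reads, ratio 1.34), the cation channel gene Trpc6 (778, 1.35) and the spindle gene Spag5 (638, 1.42). Hdgfrp3 (280, 1.52), Tmem56 (195, 1.44), the DNA repair gene Palb2 (182, 1.39) and Lnp (174, 1.36) filled the 12 with Ezh2. The counting interval lay above 0.5 for 150 of the 209 ratios and above 1 for 28. These intervals cover counting error only, since PCR reads are not independent molecules, and they take the linear count as a plain count. They rest on the same totals that chose the circRNA, where no ratio could be below 0.5. They are therefore a description and no test of the ratio.

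At the edge of the rule, Slc43a1 (37 circular reads, 74 linear counts) and Zfp426 (157 and 314) had a ratio of 0.5 and Rhbdd1 (186 and 369) of 0.504. Just outside were Snx12 (209 and 421, 0.496), Nuf2 (122 and 246, 0.496) and Dcun1d1 (142 and 287, 0.495). The fewest reads inside were those of Rims2 (21), Unc79 (22) and Fam186b (22), and just outside stood Vmn1r90 (19), Gm872 (19) and Tmem132d (18).

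Each ring was mostly the leading circRNA of its host. It was the circRNA with the most reads of its gene in 199 of the 209 (95.2%, against 50.9% of the others), with a median of 80.9% of the circular reads of the gene (27.4% in the others). The rule asks for many circular reads against the linear count, so this lead follows in part from the rule. Hipk3 exon 2 held 97.7% of its gene's circular reads and Rad52, a DNA repair gene, 99.2%. Rgnef was an exception at 34.3%, with 9 further circRNA of 21 to 1025 reads, all at a ratio of 0.0074 to 0.415. The linear count at the ring was a median of 59.3% of the highest linear count of the gene (67.9% in the others), and the host's highest linear count was a median of 617 against 1155.

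Hosts of circRNA described in other mammalian cells were split by the rule. Of 32 such genes, 14 hosts had a ring among the 209, among them Hipk3, Cdyl, Zfp609 (715 circular reads, 545 linear counts, ratio 1.31), Camsap1 (1319, 1279, 1.03), Zfp148 (1031, 1017, 1.01) and Fbxw7 (150, 214, 0.70). Over all genes with a circRNA of at least 20 reads, 203 of 1983 host names gave a ring. The list was chosen with earlier results of these data known, so nothing is read from its share. Cdr1, Cdr1as and Rmst had no circRNA under those names. The best-read ring of Smarca5 had 4 reads against 759 linear counts, and those of Zkscan1, Asap1, Setdb1 and Mbnl1 had ratios of 0.019, 0.012, 0.012 and 0.020. Foxo3 (64 reads, ratio 0.095), Slc8a1 (56, 0.062) and Rhobtb3 (100, 0.12) passed 20 reads but not the ratio.

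Among host function lists, chromatin and transcription factors were the largest group. Of 33 hosts on that list with a circRNA of at least 20 reads, 10 gave 11 of the 209, led by Usp3, Aff3, Cdyl and Nfix, with a median ratio of 1.08. Kinases, phosphatases and receptors gave 5 rings from 25 such hosts: Hipk3, Bmpr1b, Prkce, Epha5 and Acvr2a. The ubiquitin list gave 5 from 16 (Usp3, Ankib1, Ube2k, Fbxw7 and Fbxo16), transport and membranes 3 from 14 (Atp2b4, Lnp and Slc16a10), and small GTPases and the cytoskeleton none from 13. Over all genes, 203 of 1983 host names gave a ring, so nothing is read from these shares alone.

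Receptors and effectors of the TGF-β family, which act on granulosa cell growth, were among them. Bmpr1b, a BMP receptor gene, had a 7-exon ring with 219, 248 and 137 circular reads at 0-h and 235, 167 and 162 at 4-h, against 405, 515 and 287 and 354, 333 and 226 linear counts. Smad1, which transmits BMP signals, had a ring of exon 2 with 58, 72 and 38 and 78, 40 and 44 circular reads against 63, 66 and 45 and 113, 79 and 53 linear counts. Acvr2a, an activin receptor gene, had 37, 24 and 35 and 20, 47 and 11 against 30, 29 and 22 and 36, 45 and 21. The circular reads of the 2 groups overlapped in all of these hosts.

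Cnot4 and Erbb2ip were followed as hosts that the study names. Cnot4, a ubiquitin ligase of the CCR4-NOT complex, had a ring of exons 2 and 3 with 99, 87 and 59 circular reads at 0-h and 155, 94 and 96 at 4-h, against 102, 118 and 81 and 145, 110 and 95 linear counts (ratio 0.91). In circular CPM the groups did not overlap, at 547 ± 64 and 807 ± 127 (mean ± SD, n = 3), but the change was not called (edgeR log2 change 0.56, SE 0.23, adjusted p = 0.760). The study listed this same Cnot4 junction as changed, using another edgeR version. On circRNA with at least 100 CPM in 3 libraries the edgeR adjusted p here was 0.396. The reason for the difference was not tested. Erbb2ip, now named Erbin, had a 3-exon ring, another junction than the one listed for this host, with 206, 205 and 150 and 151, 157 and 155 circular reads against 292, 269 and 202 and 267, 224 and 208 linear counts (ratio 0.70). Its groups overlapped (log2 change -0.18, SE 0.20, edgeR adjusted p = 0.999).

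The rings differed in build from other circRNA, as a description of rows that are not replicates. The rings also had more circular reads (median 279 against 37), and the part of depth in their build and flanking introns was not tested. They held a median of 3 exons (1 to 16) against 4, and a single exon in 26 cases (12.4%, against 5.79% of the others). Exon 2 was the first exon of 98 rings (46.9%, against 33.4%), and none began at exon 1. The spliced length was a median of 567 nt (174 to 5072) against 529 nt. Coding together with untranslated sequence was present in 64 rings (30.6%, against 17.6%) and coding sequence alone in 138 (66.0%, against 81.0%). For the remaining 7 the matched transcript had no coding sequence there, as in AC126552.1, whose single exon belongs to the long non-coding gene Pvt1 in GENCODE M21. GC content was alike, at a median of 46.4% and 47.1%.

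The flanking introns had longer medians. The intron before the ring had a median of 14793 bp against 9245 bp, and the intron after it 15351 bp against 7683 bp. Both introns were at least 10000 bp in 100 of the 209 (47.8%, against 26.2% of the others). Aff3 lay between introns of 90142 and 128362 bp. Zbtb48, a zinc finger gene, had the shortest, of 70 and 69 bp, at a ratio of 0.62, and Rad52 had introns of 1032 and 1446 bp at a ratio of 1.34. Both introns were under 2000 bp in 9 rings. The single-exon rings ran from 238 nt in Med13l, a Mediator subunit gene, to 1970 nt in Bnc2, and their median ratio was 0.82 against 0.72 in the multi-exon rings.

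**Figure D2:**
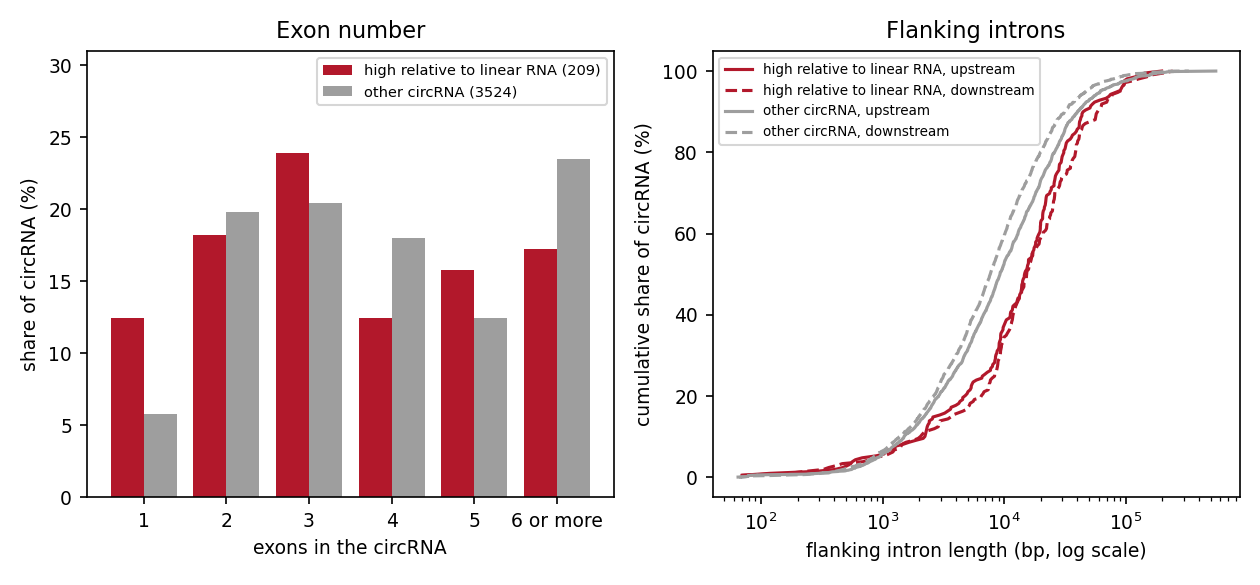
Left, share of circRNA (percent) by number of exons, for the 209 circRNA high relative to linear RNA (red) and the 3524 others (grey). Right, cumulative share (percent) by length of the intron upstream (solid) or downstream (dashed) on a log axis in bp, where the red curves lie to the right, with medians of 14793 and 15351 bp against 9245 and 7683 bp.

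The ratio was also taken at each time. Of the 209, 191 had a ratio of at least 0.5 at 0-h and 191 at 4-h post-hCG, 173 at both times and 104 in all 6 mice. The rule used the sum of both groups, so that a ring had to reach 0.5 at one of the times, and these counts follow in part from the rule and show no stability. The raw ratio moved by less than 1.5-fold in 169 (80.9%, against 54.8% of all with at least 20 circular reads). It moved by 2-fold or more in 11 (5.26%, against 22.3% of all), and 10 of these 11 had fewer than 100 circular reads. The 209 had more circular reads than all (median 279 against 39), and the part of depth in these shares was not tested. Over the 209 the log2 ratio at 0-h and at 4-h correlated at r = 0.61 (Spearman coefficient 0.57), and over the 162 with at least 100 reads at r = 0.73 (Spearman coefficient 0.71). These correlations are across circRNA that share their libraries, and are a description only.

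Between single mice, the SD of the log2 ratio had a median of 0.31 in the 162 rings with at least 100 reads. The 554 others with as many reads had a median SD of 0.48. The former had more circular reads (median 361 against 165), and the part of depth in this difference was not tested. The spread of the ratio over the 6 mice, as a chi-square per degree of freedom, had a median of 1.39 in the former and 2.61 in the latter. Counting error alone would give a median of 0.87 if both kinds were plain, independent counts. The linear count behaved as a mean over both ends of a junction, so 0.87 is no exact reference. The weight of the linear count differs between the groups, and nothing is read from these medians.

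**Figure D3:**
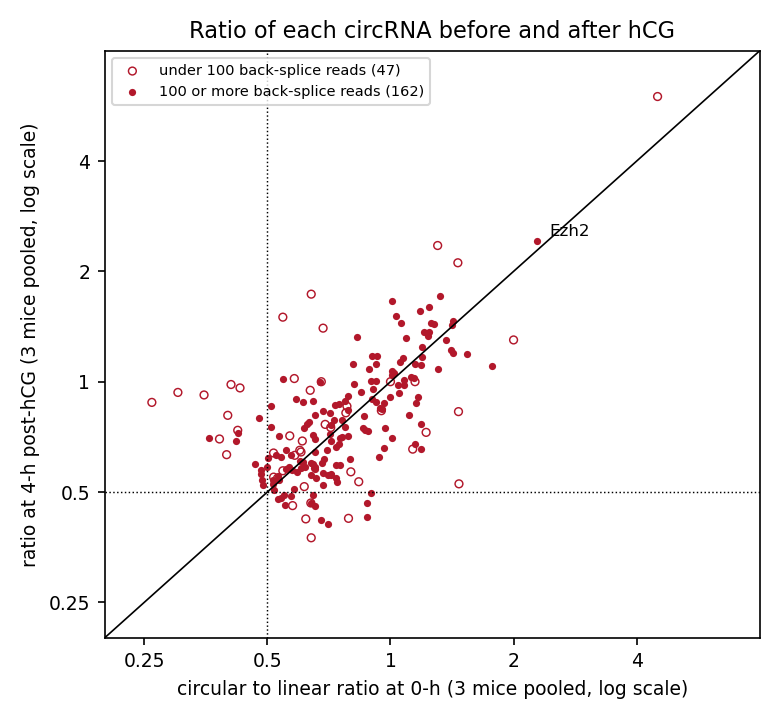
Circular to linear ratio of each of the 209 circRNA at 0-h (horizontal) and at 4-h post-hCG (vertical), each from the pooled counts of 3 mice, on log scales. Filled points have at least 100 circular reads, the solid line marks equal ratios and the dotted lines 0.5, and Ezh2 stands at 2.28 and 2.43.

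Of the 209 rings, 1 was called as changed in circular reads after hCG (0.478%), a share near that of all circRNA. The test was edgeR's quasi-likelihood test across all 3733 circRNA, and a call needed a Benjamini-Hochberg adjusted p no higher than 0.1 together with a change of 1.5-fold or more. Epha5 alone of the 209 was called higher, where 0.589% of all circRNA were called higher, and none was called lower, where 0.0268% were (0.616% either way). At an unadjusted p under 0.05 there were 15 of the 209 (7.18%, against 5.25% of all). DESeq2 called none of the 209, but gave no adjusted p for some with few reads, such as Ikzf1 and Ccdc171. The median log2 change was -0.017 in the 209 and -0.0032 in all circRNA. The groups did not overlap in circular CPM for 20 of the 209, 7 higher and 13 lower at 4-h, where 10.8% of all circRNA did not overlap. For the 12 circRNA with the most reads the log2 change lay between -0.35 and 0.25, and the smallest adjusted p was 0.926. A p that misses the threshold does not show that they stayed level.

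Epha5, a receptor tyrosine kinase for ephrins, had 20, 17 and 20 circular reads in the 0-h mice and 104, 22 and 34 in the 4-h mice. Scaled to the library, the 0-h mice were at 125, 102 and 169 CPM and the 4-h mice at 627, 159 and 285 CPM. Of the 4-h mice, 1 was thus within the 0-h range and the other two above it. Its circular level was 132 ± 34 CPM at 0-h and 357 ± 242 CPM at 4-h (mean ± SD, n = 3), and the groups overlapped at 169 and 159 CPM. The edgeR log2 change was 1.47 (SE 0.36, adjusted p = 0.0326). Without the 4-h mouse with 104 reads (replicate 1) it was 0.76 (edgeR adjusted p = 0.98), without 0-h replicate 1 or 2 the adjusted p was 0.271 or 0.571, and with DESeq2 it was 0.164, so the call rests on these libraries. The linear counts of Epha5 rose with it, from 8, 20 and 12 to 63, 42 and 29, with no overlap (log2 change 1.79, SE 0.33, edgeR adjusted p = 5.51e-05).

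The next largest circular changes were not called. Fitted log2 values above 0.9 were found for Ikzf1 (1.64), Ccdc171 (1.55), Zc3h12b (1.12) and Adam22 (0.98), which had 25 to 48 circular reads in all 6 mice together. With 1 library left out they ran from 1.03 to 2.12 for Ikzf1, 0.93 to 2.13 for Ccdc171 and 0.63 to 2.35 for Zc3h12b, and Adam22 turned to -1.11 without 4-h replicate 1. The largest value below 0 was that of 6820408C15Rik, with 15, 19 and 16 reads at 0-h and 0, 5 and 5 at 4-h (log2 change -2.17, SE 0.68, edgeR adjusted p = 0.232), whose groups did not overlap. Bbs9 (-1.20), Rp2h (-0.91), Mgat4a (-0.77) and Esrp1 (-0.75) followed. With 1 library left out these ran from -2.28 to -0.80, from -1.49 to -0.68, from -1.22 to -0.48 and from -1.73 to -0.24. Ikzf1 and Mrc1 are expressed in leukocytes, Hemgn and Ank1 in red cell precursors and Tex15 and Morc1 in germ cells. Ikzf1, Mrc1, Hemgn and Ank1 had 30, 42, 22 and 34 circular reads in total, and Tex15 and Morc1 308 and 312. The summed linear level of the leukocyte markers was 5.45 to 9.89 CPM at 0-h and 4.7 to 5.25 at 4-h. That of theca, from 1 gene of 4, was 22.6 to 30.4 and 15.9 to 17.7. Oocyte markers were at 17.5 to 18.7 and 13.2 to 18.2. These sums leave out the linear TMM factors, which ran from 1.03 to 1.07 before hCG and from 0.94 to 0.96 after it. Applying them would lower the 0-h sums and raise the 4-h sums. The narrow gap between the leukocyte ranges therefore depends on the scaling, and nothing is read from it. The theca ranges did not overlap without those factors. The part of other cells in these rings was not tested.

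More linear than circular changes passed the test, among these circRNA as among all. In the same test on linear counts, 9 of the 207 that could be tested were called higher and 11 lower, where 9.86% and 11.3% of all were (21.1% either way, against 9.66% here). Linear CPM did not overlap between the groups in 50 of the 207, where 39.2% of all did not. The linear counts at these rings were lower than those of the others, with medians of 371 and 690. Between their quartiles of 161 and 693 linear counts, 16 of 106 were called (15.1%) and 328 of 1605 others (20.4%). The median linear log2 change was -0.06 in the 207 and -0.01 in all. With library sizes alone in place of TMM scaling the median of all moved to -0.17 and that of the 207 to -0.21, and the calls became 7 higher and 29 lower (288 and 645 in all, against 368 and 420).

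Beside Epha5, the linear counts that rose included those of Homer1, Prkce and Cdc73, whose circular changes were not called. Homer1, a scaffold of calcium signalling, had 98, 74 and 55 linear counts at 0-h and 156, 134 and 138 at 4-h (log2 change 0.99, SE 0.20, edgeR adjusted p = 0.000145). Its circular reads were 70, 63 and 66 at 0-h and 56, 73 and 71 at 4-h, and overlapped. Prkce, protein kinase C epsilon, went from 55, 63 and 57 to 147, 85 and 98 linear counts (0.98, SE 0.21, adjusted p = 0.000446), with 71, 95 and 42 and 92, 61 and 63 circular reads. Cdc73, a subunit of the PAF1 transcription complex, went from 56, 86 and 68 to 148, 146 and 86 linear counts (0.91, SE 0.20, adjusted p = 0.000406), with 68, 42 and 38 and 61, 48 and 46 circular reads. Mob3b, Slc16a10, Ripk2, Nemf and Rabgef1 were called higher too, at 0.70 to 1.66.

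The linear counts that fell included those of Fbxo16, an F-box gene, from 19, 17 and 14 to 8, 5 and 2 (log2 change -1.66, SE 0.52, edgeR adjusted p = 0.0165), beside 2, 17 and 13 and 7, 10 and 9 circular reads. Tex15 fell from 96, 165 and 125 to 74, 82 and 56 linear counts (-0.79, SE 0.20, adjusted p = 0.00234), while its circular reads were 39, 67 and 56 and 43, 62 and 41. Smyd4 is from a SET and MYND domain family. Its linear counts were 50, 72 and 52 and then 44, 26 and 24 (-0.82, SE 0.25, adjusted p = 0.0143) and its circular reads 55, 84 and 38 and then 44, 18 and 37 (-0.74, SE 0.31, adjusted p = 0.774), a circular change that was not called. Nars2, 1600002H07Rik, Alg12, A430107O13Rik, Zwilch, BC057079, Espl1 and Trmt2b were also called lower, at -0.96 to -0.65.

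Of the 20 rings with a called linear change, the circular change had the same sign in 16 and was smaller in all 20. Along the direction of the linear change, the median was 0.81 for the linear and 0.21 for the circular log2 change. In the 768 others with a called linear change these medians were 0.92 and 0.32, and 69.5% had the same sign. Linear changes selected for passing a threshold are biased away from 0, so these sizes are set side by side with no test.

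**Figure D4:**
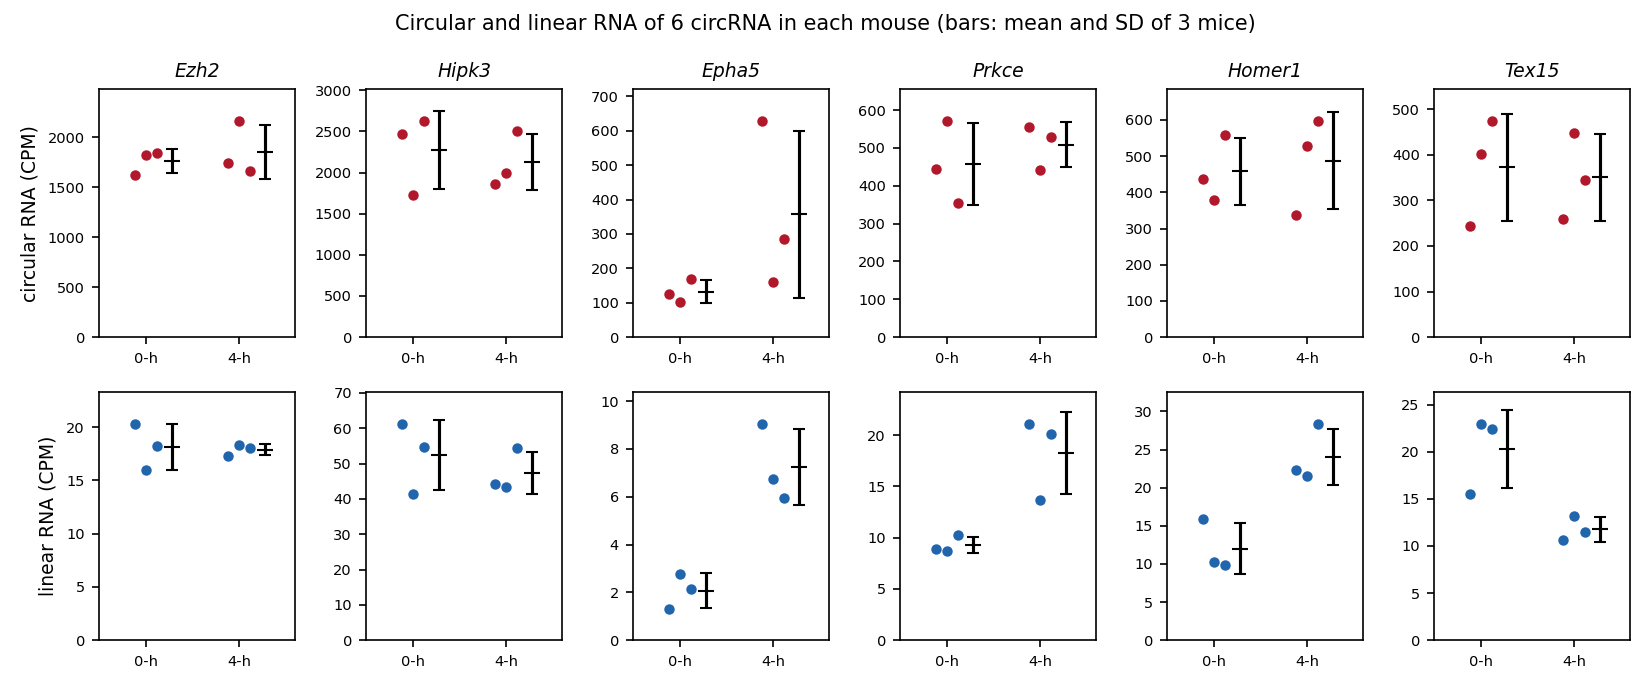
Circular CPM (upper row, red) and linear CPM (lower row, blue) of 6 circRNA in each mouse at 0-h and 4-h post-hCG, with black bars for the mean and SD of 3 mice, and each axis from 0. The linear values of Epha5, Prkce and Homer1 are higher at 4-h with no overlap and those of Tex15 lower, while circular values overlap in all 6 circRNA.

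The difference itself was tested as the interaction of RNA form and group in edgeR. None of the 207 was called higher or lower in ratio, where 0.268% and 1.02% of all were (1.29% either way). DESeq2 also called none, but gave no adjusted p for some with few reads, such as Nars2. In edgeR, 10 had an unadjusted p under 0.05 (4.78%, against 11.1% of all). The smallest was that of Homer1, whose ratio was 0.88 at 0-h and 0.47 at 4-h (log2 change -0.91, SE 0.35, adjusted p = 0.296). Prkce went from 1.19 to 0.66 (-0.83, SE 0.34, adjusted p = 0.310) and Nars2 from 0.30 to 0.93 (1.59, SE 0.65, adjusted p = 0.310). The median fitted change of ratio was 0.05 in the 207 and -0.02 in all. Neither a change nor a constant ratio was therefore shown for these hosts.

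**Figure D5:**
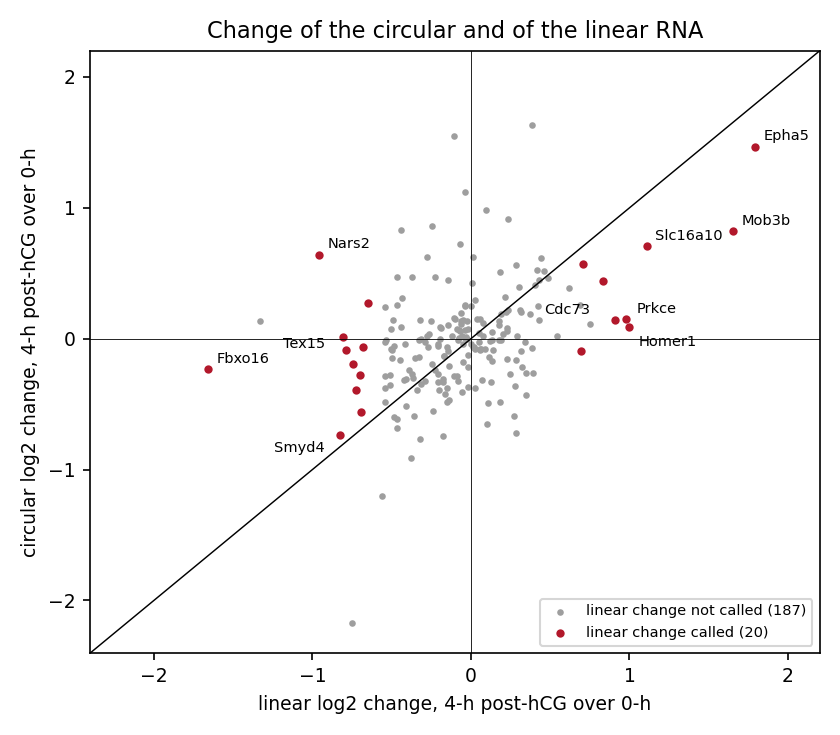
Log2 change from 0-h to 4-h post-hCG of the circular reads (vertical) against that of the linear counts (horizontal) for the 207 circRNA tested in both, with the line of equal change. The 20 with a called linear change (red) have a smaller circular than linear change, and Epha5 is the farthest to the right at 1.79 and 1.47.

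Within groups, circular and linear levels tended to deviate together. After the group means of log2 CPM were taken out, the correlation over the 6 mice had a median of 0.53 in the 162 rings with at least 100 reads and 0.30 in the 554 others with as many. It was above 0 in 79.6% and 69.9%. The 162 had more circular reads (median 361 against 165), and the part of depth in this difference was not tested. Both columns of a mouse come from the same library, and the cause was not tested.

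Genes that make or clear circRNA were read through their linear counts. Of 35 such genes, 11 had a circRNA in the linear test, 1 was called higher and none lower, where 9.86% and 11.3% of all were, so the count is near the background. The list had a median log2 change of 0.19 against -0.01 for all circRNA. Mbnl1, a splicing factor that promotes back-splicing in flies and human cells, rose from 24.1 ± 3.2 to 39.3 ± 4.9 CPM (n = 3 each, log2 change 0.70, SE 0.16, edgeR adjusted p = 0.000719), a call lost without TMM scaling, where the change was 0.55. Dhx9, a helicase that unwinds inverted repeats, was at 59.1 ± 8.1 and 67.7 ± 11.6 CPM (0.19, adjusted p = 0.405). Ptbp1 (0.57, adjusted p = 0.00741) was below the fold limit, and Dicer1 (0.24, adjusted p = 0.494) and Esrp1 (-0.17, adjusted p = 0.846), whose own ring was among the 209, were not called.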

How the data were processed

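The authors deposited whole-number counts of back-splice reads and of linear RNA for each junction in 6 libraries, 1 per mouse. By the study's methods, total stranded RNA was read as 100-cycle paired ends, checked with FastQC v0.11.7, trimmed with cutadapt v1.14, mapped to GRCm38 with TopHat and TopHat-Fusion v2.1.0, and searched for back splices with CIRCexplorer v1.1.7, with edgeR v3.12.1 for tests. The sources used here do not say how the linear counts were obtained (not given in the sources). In all 3459 sets of 4 circRNA made of 2 starts and 2 ends, the linear counts were additive within 1 read in each library and off by exactly 1 in 25.0%, the pattern of a mean over the 2 ends rounded to a whole read. Linear counts halved are kept only as an alternative. A second table, with the authors' fold changes and p-values, was not used.

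Members and lists were chosen with earlier results of these data known. Groups came from the sample labels. Library size was the circular reads on junctions naming a gene (119094 to 163145, since junctions without a gene held 15.6% to 18.9%), or the linear counts on such circRNA, with TMM factors within each kind. Counts were tested in edgeR 4.0.16 (quasi-likelihood, R 4.3.3), with DESeq2 1.42.0 as an alternative, on circRNA with at least 20 circular reads (3733) and, for linear and ratio tests, at least 20 linear counts (3731). The ratio test was the interaction of form and group over 12 columns, with no term for the mouse. The fits were tested on simulated data. CPM were scaled to the library size times its TMM factor, and the marker sums to the linear library size without that factor. Each library came from another mouse.

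Exons, introns and transcripts came from GENCODE M21, matched on exon ends and exon number, and sequence from the GRCm38.p6 genome. In 33 of 209 rows the gene name differed from that annotation, and names are given as deposited. Repeated coordinates on the other strand, without a gene name, were left out. Named circRNA were the 12 with most reads, the 12 with the highest ratio, the 5 largest circular rises and falls, up to 10 called per test, up to 4 per host list, hosts the paper names, those next to the thresholds and, for genes that make or clear circRNA, called genes and up to 4 others. Circles beyond this rule (Camsap1, Zfp148, Zfp609, Rad52, Zbtb48, Med13l, Lin54, Bnc2, Acvr2a, AC126552.1, Mrc1, Hemgn, Ank1, Morc1, hosts with a pair, the smaller linear calls and hosts under the ratio) were named after their values were seen. Alternatives are given in the closing section.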

Additional observations from a re-analysis of the deposited data

How the results depend on the processing

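The number of circRNA meeting the rule was 209 and ran from 204 to 220 with each library left out, 221 from the 0-h libraries alone, 225 from the 4-h libraries alone, 242 with at least 10 reads, 186 with at least 50, and 209 with repeated coordinates counted once. It was 570 at a ratio of 0.25 or with linear counts halved, and 50 at a ratio of 1.

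Circular calls among all 3733 were 23, and 12 with DESeq2, 7 with no filter and 7 to 20 with a library left out (9, 7 and 9 without 0-h replicate 1, 2 or 3, and 11 without 4-h replicate 3). Among the 209 there was 1, which became 0 with DESeq2, with no filter, and without 0-h replicate 1, 0-h replicate 2 or 4-h replicate 1. It became 2 without 4-h replicate 2, where Med13l was called lower, so the range was 0 to 2.

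Linear calls were 788 in all, 341 with at least 100 CPM in 3 libraries, 10024 with no filter and 705 to 905 with a library left out. Among the 207 they were 20, 36 without TMM factors and 15 to 28 with a library left out. Every one of the 20 kept its sign, and 7 of the 21 linear changes followed (Mbnl1 included) were called under all alternatives: Epha5, Homer1, Prkce, Cdc73, Tex15, Smyd4 and Fbxo16.

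Ratio calls were 48 in all (10 higher, 38 lower), 137 with DESeq2, 25 with the mouse as a block and 7 to 77 with a library left out (18, 7 and 18 without 0-h replicate 1, 2 or 3, 24 and 77 without 4-h replicate 1 or 2). Without TMM factors they were 34 higher and 20 lower. Among the 207 they were 0 in every alternative. For genes that make or clear circRNA the 1 call became 0 with at least 100 CPM in 3 libraries or without TMM factors, 2 with no filter, and 1 to 2 with a library left out (2 without 0-h replicate 3 or 4-h replicate 2). The circular log2 change of Adam22 turned to -1.11 without 4-h replicate 1, the low end of -1.11 to 1.56 with a library left out. The cause was not tested.

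The deviations of same-numbered mice correlated at 0.037, 0.016 and 0.023 for circular and at 0.046, -0.074 and -0.053 for linear CPM. Pairs with different numbers ran from -0.029 to 0.0054 for circular and from -0.12 to 0.16 for linear CPM. Whether same-numbered mice were handled together is not given, and was not tested. With the replicate block, 20 circular, 788 linear and 39 ratio changes were called in all, and 1, 20 and 0 among these circRNA, with 1 on the biogenesis list. The 209 had a median of 279 circular reads over 6 mice, and the part of depth in the circular calls was not tested.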
